A study of Mus musculus with 3 samples.

Results

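Small proline-rich proteins of the Sprr2 family were followed in RAW 264.7 cells, a mouse macrophage line transformed by a leukemia virus, on 1-colour microarrays. Gene probes named Sprr2a1, Sprr2a2, Sprr2b, Sprr2d, Sprr2e, Sprr2f, Sprr2g, Sprr2h, Sprr2i or Sprr2k were taken, which gave 10 genes with 11 probes of 60 bases, out of 24770 genes with a symbol on the array. The family was picked for the rises of Sprr2d and Sprr2e on these same arrays (ranks 1 and 3 of 15329 genes for CRL1505 + LPS over LPS and 6 and 23 of 15497 for CRL1506 + LPS over LPS), so the ratios below describe the genes and carry no test. All 3 cultures received lipopolysaccharide (LPS), the bacterial ligand of TLR4, at 50 ng/mL. One culture had LPS without lactobacilli (LPS), one had been exposed before to Lacticaseibacillus rhamnosus CRL1505 (CRL1505 + LPS) and one to Lactiplantibacillus plantarum CRL1506 (CRL1506 + LPS), each strain at 50000000 cells/mL for 24 h and washed off before LPS. The time with LPS was 12 h in the study's design and 3 h in its sample descriptions, and no culture without LPS was analysed here.

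Each condition had 1 array, so no difference below could be set against the spread between cultures. The array of CRL1505 + LPS was on a different slide, scanned in a different run, from the other two arrays. The strain CRL1505 and its slide therefore cannot be told apart. Of the 59305 gene spots, 54.5%, 48.5% and 55.3% were well above background on the LPS, CRL1505 + LPS and CRL1506 + LPS arrays, and no gene spot was saturated. All 13 macrophage markers with a probe, Cd68, Csf1r and Spi1 among them, were well above background on every array, and their summed intensity was 1019, 1054 and 842 times the array's 75th percentile in the same order. Of 17 epithelial and keratinocyte markers, 3, 2 and 3 were well above background, and their summed intensity was 7.29, 8.42 and 10.5 times the 75th percentile. Most of this sum came from Trp63, which encodes a transcription factor of stratified epithelium and read 4091, 3576 and 6341. Krt10, a keratin of differentiated keratinocytes, read 899, 646 and 695, and Epcam was above background with LPS (162) and CRL1506 + LPS (58.0). Krt5 and Krt14, the keratins that define basal keratinocytes, stayed at background. The part of other cell types in the Sprr2 values was not tested, and in RNA of whole cultures a few cells with much of an RNA cannot be told apart from many cells with little.

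SPRR2 proteins are short, rich in proline and cysteine, and are known as precursors of the cornified envelope of keratinocytes, where transglutaminases cross-link them to loricrin and involucrin. Their genes lie side by side in the epidermal differentiation complex, a gene cluster that also holds the genes of filaggrin, late cornified envelope and S100 proteins. Beyond skin, Sprr2 transcripts are known to rise in gut, uterine and biliary epithelium after bacterial colonisation, hormones or injury, and Sprr2a protein of the gut has been described as antibacterial.

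The probes of the family were compared base by base, because near-identical genes can share signal on an array. Stretches of 30 bases are shown for the pair with the largest measured ratios. Bases are in capitals where Sprr2d and Sprr2e are identical and in lower case where they differ.
Sprr2d: TTGTGTTGTCAgcaTgGTTTCATTTCCTGA
Sprr2e: TTGTGTTGTCAttgTtGTTTCATTTCCTGA
These stretches lay in probes placed by the array design at chr3:92144721-92144780 (Sprr2d) and chr3:92157288-92157347 (Sprr2e) of the mm9 build, on the plus strand. They were identical at 26 of 30 bases, and the longest run without a difference was 14 bases. The array design gives the gene but not the part of the transcript that a probe covers.

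Sprr2b and Sprr2k shared the longest stretch within the family, 28 bases. It is shown for the reading of their values, again with identical bases in capitals.
Sprr2b: TcCTCCTCCAAAGTGCCCTGAGCCTTGTCC
Sprr2k: TtCTCCTCCAAAGTGCCCTGAGCCTTGTCC
Only 1 of these 30 bases differed, so the signals of Sprr2b (chr3:92121449-92121508, mm9, plus strand) and Sprr2k (chr3:92237308-92237367, mm9, plus strand) are uncertain where both RNAs are present. Sprr2f and Sprr2h shared 15 bases. Sprr2a1, Sprr2d, Sprr2f, Sprr2g, Sprr2h and Sprr2i had no stretch of 16 bases in common with the probe of any other gene on the array, and Sprr2e had a stretch of 16 in common with the probe of Vps29, a retromer subunit. Probes were compared with probes and not with transcripts. Whether a probe also bound RNA of another Sprr2 gene was therefore not tested.

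The Sprr2a2 probe (chr3:92060587-92060646, mm9, plus strand) differed from the rest of the family. It shared 16 bases or more in a row with 7 probes of other names, among them a probe of Rpl21, the gene of a protein of the large ribosomal subunit, and probes of predicted genes 11849 and 5528. Below, 30 bases of the Sprr2a2 probe stand beside the Rpl21 probe (chr5:147647508-147647567, mm9, plus strand), with identical bases in capitals.
Sprr2a2: TCCATAtGAATTCATGGCCTAATaaACAaA
Rpl21: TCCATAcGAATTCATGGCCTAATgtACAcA
These were identical at 26 of 30 bases. With predicted gene 11849 the common stretch was 31 bases.

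Sprr2d had the highest ratio of all 15329 genes compared between CRL1505 + LPS and LPS, with lower bounds of other genes counted at their value. Its processed intensity was 34.5 with LPS, 4295 with CRL1505 + LPS and 961 with CRL1506 + LPS. The LPS value lay just above 33.3, the lowest intensity called well above background on that array, and the other two stood far above it. Scaled to the 75th percentile of each array, Sprr2d was 179-fold higher with CRL1505 + LPS than with LPS (log2 ratio 7.48) and 29.7-fold higher with CRL1506 + LPS than with LPS (log2 ratio 4.89). The CRL1505 + LPS array stood 6.03-fold above the CRL1506 + LPS array. Probes spotted 10 times, at levels like those of Sprr2d, had a median SD between spots of 0.24 on the log2 scale on the LPS array (9 probes) and 0.085 on the CRL1505 + LPS array (3 probes), which is the error of spotting within an array and not of repeated cultures.

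Sprr2e followed in the same order. Its intensity was 53.0 with LPS, 3312 with CRL1505 + LPS and 643 with CRL1506 + LPS, and every value was well above background. The CRL1505 + LPS array was 89.9-fold above LPS (log2 ratio 6.49), rank 3 of 15329 genes. The CRL1506 + LPS array was 12.9-fold above LPS (log2 ratio 3.69), and CRL1505 + LPS was 6.96-fold above CRL1506 + LPS. Spots of repeated probes at these levels had a median SD of 0.24 on the LPS array (10 probes) and 0.070 on the CRL1505 + LPS array (4 probes).

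**Figure D1:**
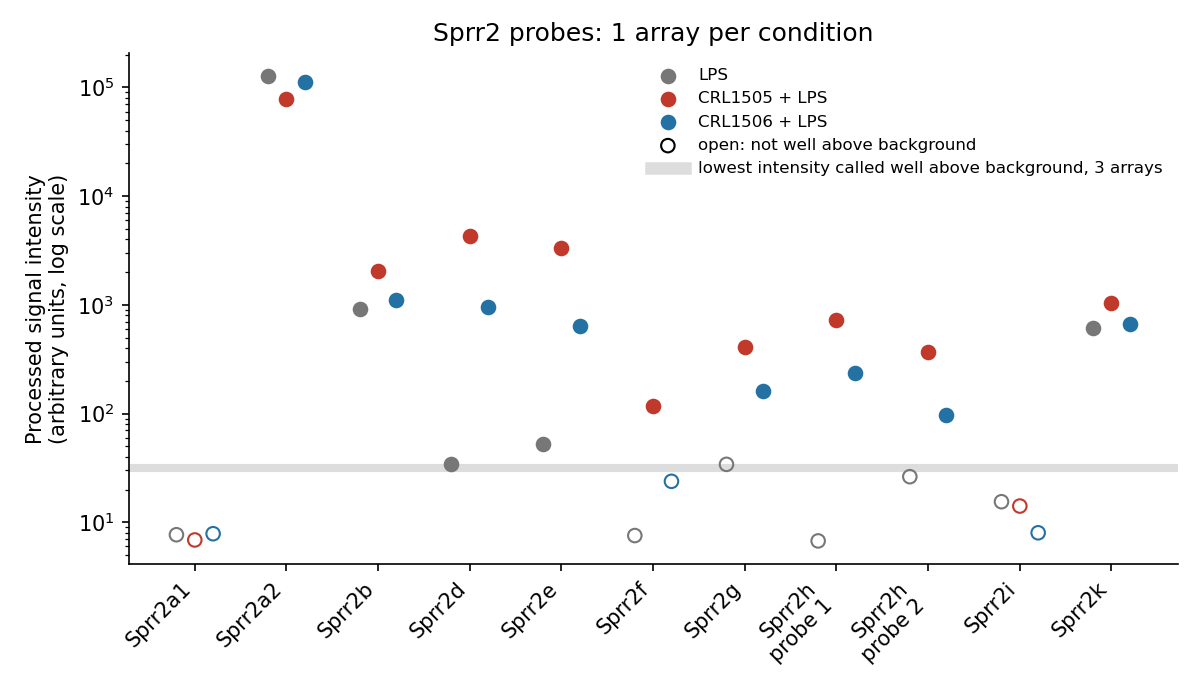
Processed signal intensity (log scale, arbitrary units) of the 11 Sprr2 probes on the LPS, CRL1505 + LPS and CRL1506 + LPS arrays, 1 point per array, with open points where a probe was not well above background and a grey band at the lowest intensities called well above background. Sprr2d runs from 34.5 (LPS) to 961 (CRL1506 + LPS) and 4295 (CRL1505 + LPS), Sprr2e, Sprr2g and Sprr2h keep this order, and the points of Sprr2a1 and Sprr2i are unfilled on all 3 arrays. Heights of different probes are not comparable with each other.

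Sprr2f, Sprr2g and Sprr2h were not well above background with LPS, so their ratios over LPS are lower bounds. Sprr2h has a pair of probes whose longest common stretch is 6 bases. The first read 6.74 with LPS, 725 with CRL1505 + LPS and 238 with CRL1506 + LPS, and the second read 26.3, 371 and 97.4. Both probes thus gave the same order of the arrays. By its first probe, which is the brighter, Sprr2h was at least 31.3-fold higher with CRL1505 + LPS and at least 7.60-fold higher with CRL1506 + LPS than with LPS. By its second probe these bounds were at least 16-fold and at least 3.11-fold. With normexp background correction the log2 bounds of Sprr2h over LPS were 3.60 and 1.91, in place of 4.97 and 2.93. Without the filter on dim probes the log2 differences were 7.27 and 5.23, from an LPS reading at background. Whether Sprr2h rose less than Sprr2d and Sprr2e is therefore not known. Between the strains, where both arrays measured it, CRL1505 + LPS was 4.11-fold above CRL1506 + LPS by the first probe and 5.15-fold by the second.

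Sprr2g, which RefSeq's promoter table does not hold, read 34.1 with LPS, 414 with CRL1505 + LPS and 162 with CRL1506 + LPS. It was at least 17.4-fold higher with CRL1505 + LPS and at least 5.04-fold higher with CRL1506 + LPS than with LPS, and the CRL1505 + LPS array was 3.45-fold above the CRL1506 + LPS array. In the deposited log2 values its log2 ratios over LPS were 2.67 and 1.03, in place of 4.12 and 2.33. Sprr2f was well above background on 1 array only. It read 7.55 with LPS, 117.5 with CRL1505 + LPS and 23.8 with CRL1506 + LPS, so that CRL1505 + LPS was at least 5.07-fold above LPS (log2 bound 2.34, and 1.41 with normexp) and at least 4.80-fold above CRL1506 + LPS. No ratio is given for Sprr2f between CRL1506 + LPS and LPS, since neither array measured it above background.

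Sprr2b and Sprr2k, the pair with the near-identical stretch, were measured on all arrays, LPS included, and moved less. Sprr2b read 908 with LPS, 2067 with CRL1505 + LPS and 1098 with CRL1506 + LPS. Sprr2k read 612, 1043 and 668. Both were above 2-fold with CRL1505 + LPS over LPS, at 3.27-fold for Sprr2b and 2.45-fold for Sprr2k. With CRL1506 + LPS over LPS the log2 ratios were 0.36 for Sprr2b and 0.22 for Sprr2k, below 2-fold and close to 0.22, the median SD between log2 ratios of different probes of 1 gene in that comparison. Between the strains, CRL1505 + LPS was 2.54-fold above CRL1506 + LPS for Sprr2b and 2.11-fold for Sprr2k.

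Sprr2a2 was the only measured member whose arrays lay within 2-fold of each other in every comparison. It read 126950 with LPS, 78530 with CRL1505 + LPS and 112680 with CRL1506 + LPS, and after scaling the log2 ratios were -0.17 for CRL1505 + LPS over LPS and -0.08 for CRL1506 + LPS over LPS. No direction is given, since the sign turned when the arrays were scaled to their medians (0.13 for CRL1505 + LPS over LPS) or by cyclic loess (0.08 for CRL1506 + LPS over LPS). The 7 probes that share bases with it read 85317 to 172450 with LPS. They had log2 ratios of -0.25 to 0.06 (median -0.18) for CRL1505 + LPS over LPS and of -0.20 to -0.10 (median -0.15) for CRL1506 + LPS over LPS. Whether the probe read Sprr2a2 or RNA of the ribosomal protein L21 family cannot be told apart on these arrays.

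**Figure D2:**
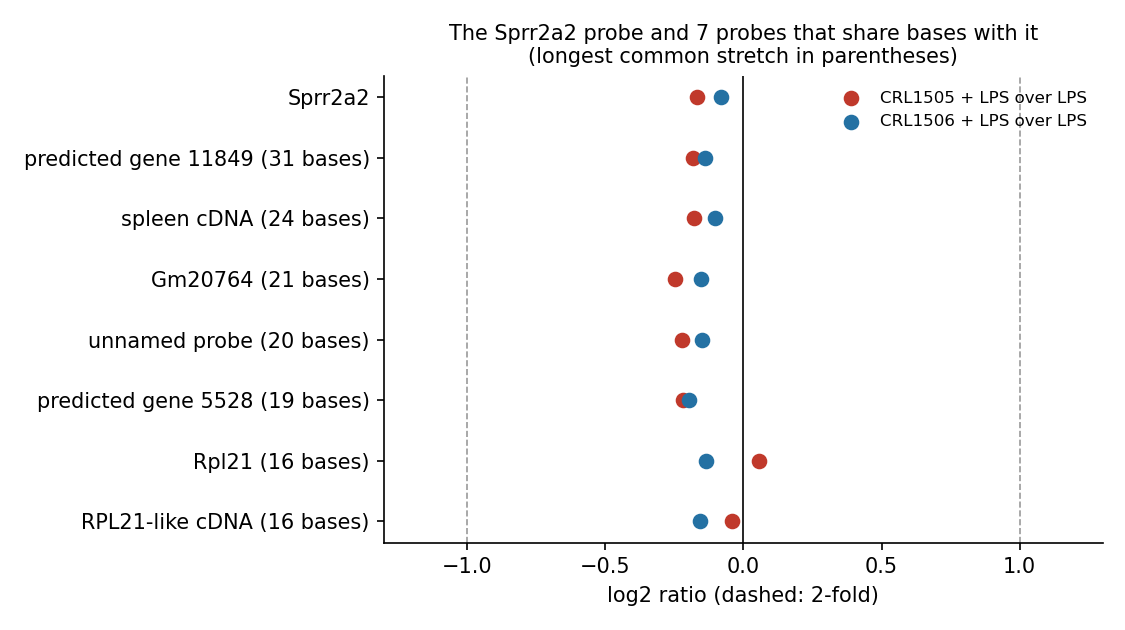
Log2 ratios over LPS (x axis) of the Sprr2a2 probe and of the 7 probes of other names that share at least 16 bases in a row with it (y axis, with the longest common stretch), for CRL1505 + LPS in red and CRL1506 + LPS in blue, 1 array per condition. All points lie between -0.25 and 0.06, inside the dashed lines at 2-fold, and the Sprr2a2 points (-0.17 and -0.08) lie among the others or next to them.

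Sprr2a1 and Sprr2i stayed at background on every array and were not compared. Sprr2a1 read 7.69, 6.88 and 7.85, and Sprr2i read 15.5, 14.1 and 8.01 with LPS, CRL1505 + LPS and CRL1506 + LPS, which lies under the lowest intensity that passed on each array (29.6 to 33.3).

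Counted by gene, 7 of the 10 Sprr2 genes (8 compared) were at least 2-fold higher with CRL1505 + LPS than with LPS, beside 9.33% of all 15329 genes compared. For CRL1506 + LPS over LPS, 4 of the 10 (7 compared) were at least 2-fold higher, namely Sprr2d, Sprr2e, Sprr2g and Sprr2h, beside 4.67% of 15497 genes. For CRL1505 + LPS over CRL1506 + LPS the count was 7 of 10 (8 compared), beside 8.75% of 15231 genes. None was 2-fold lower in any of these comparisons, beside 8.29%, 3.44% and 6.72% of all genes. The median log2 ratio of the members compared was 3.23, 2.33 and 1.91, and that of all genes compared was 0.00, -0.07 and 0.03. The family was chosen on the comparisons with LPS, and genes that passed only through the array where they were high had to differ, so these counts and medians describe the members. Both comparisons with LPS rest on the same LPS array.

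**Figure D3:**
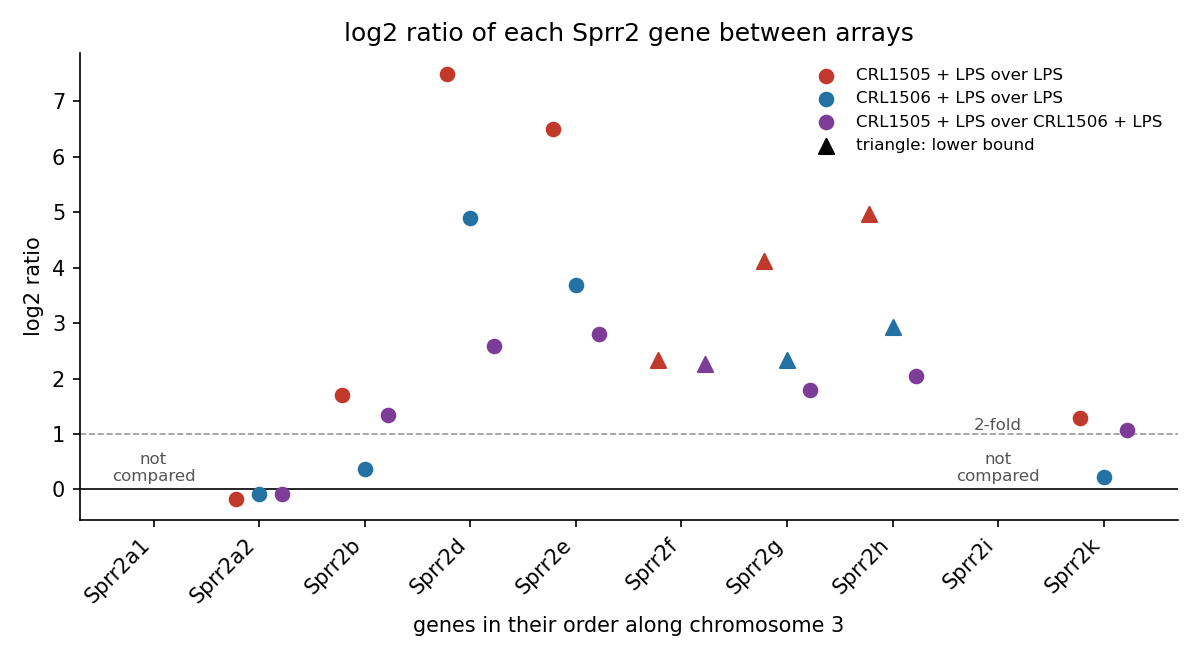
Log2 ratios of the 10 Sprr2 genes between arrays, in the order of the genes along chromosome 3, with triangles for lower bounds and a dashed line at 2-fold. Sprr2d (7.48 and 4.89 over LPS) and Sprr2e (6.49 and 3.69) stand highest as plotted. The bounds of Sprr2f, Sprr2g and Sprr2h lie between 2.26 and 4.97 and do not fix their place below Sprr2d and Sprr2e. Sprr2b and Sprr2k lie between 0.22 and 1.71, and Sprr2a2 lies near 0.

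Among the members, those with the highest ratios or lower bounds for CRL1505 + LPS over LPS lay next to each other on chromosome 3. Sprr2f is counted there by its bound only and had no ratio for CRL1506 + LPS over LPS. Sprr2d and Sprr2e are neighbours, followed by Sprr2f, Sprr2g and Sprr2h, whereas Sprr2b and Sprr2k, with smaller ratios, lie on either side of this group, and Sprr2i, between Sprr2h and Sprr2k, was not measured above background. A pair of loci that the rule did not take lie inside the cluster. The pseudogene Sprr2j-ps, between Sprr2i and Sprr2k, read 129 with LPS, 595 with CRL1505 + LPS and 313 with CRL1506 + LPS, a 6.63-fold and a 2.58-fold excess over LPS. With CRL1505 + LPS it thus stood above the bound of Sprr2f (5.07-fold), although it lies outside the group. Sprr2a3 had a pair of probes that disagreed, since one stayed near 7 on every array and the other read 7.59, 84.6 and 88.6, at least 3.65-fold and at least 2.83-fold above LPS. The mean over its probes gave log2 ratios of 0.00 in both comparisons, so these calls rest on that 1 probe. Its call with CRL1506 + LPS also ended with the deposited log2 values and with normexp, and the mean pixel signal of that spot lay 0.27 above its median on the log2 scale, the part of which was not tested. For Sprr2a3, unlike Sprr2d and Sprr2e, the strain arrays lay within 1.29-fold of each other.

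Promoter windows from RefSeq (GRCm38.p6) were found for 9 of the 10 genes, all but Sprr2g. The 250 bases before the annotated start are printed for Sprr2d and Sprr2e, which had the highest measured ratios. They are also printed for Sprr2i, whose probe stayed at background, and for Sprr2a1. Capitals mark matches, on either strand, to the AP-1 motif TGANTCA, the octamer ATTTGCAT and the TATA box TATAAA, letters chosen after the windows had been looked at. The windows are chr3:92338890-92339139 (Sprr2d), chr3:92351893-92352142 (Sprr2e), chr3:92407741-92407990 (Sprr2i) and chr3:92215585-92215834 (Sprr2a1), all on the plus strand.
Sprr2d: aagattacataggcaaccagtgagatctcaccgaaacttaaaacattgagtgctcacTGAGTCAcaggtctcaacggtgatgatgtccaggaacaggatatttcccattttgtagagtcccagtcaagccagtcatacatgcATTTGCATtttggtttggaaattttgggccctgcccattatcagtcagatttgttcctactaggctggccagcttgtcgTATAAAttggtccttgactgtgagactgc
Sprr2e: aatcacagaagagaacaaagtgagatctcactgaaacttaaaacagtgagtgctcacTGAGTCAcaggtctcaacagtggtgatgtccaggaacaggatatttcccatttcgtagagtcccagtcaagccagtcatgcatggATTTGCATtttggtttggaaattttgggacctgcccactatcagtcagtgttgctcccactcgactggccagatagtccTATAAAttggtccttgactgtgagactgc
Sprr2i: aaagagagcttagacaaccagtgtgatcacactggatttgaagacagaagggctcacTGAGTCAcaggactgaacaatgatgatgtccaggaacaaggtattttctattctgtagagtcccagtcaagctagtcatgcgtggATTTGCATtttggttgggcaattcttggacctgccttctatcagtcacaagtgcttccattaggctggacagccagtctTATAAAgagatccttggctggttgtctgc
Sprr2a1: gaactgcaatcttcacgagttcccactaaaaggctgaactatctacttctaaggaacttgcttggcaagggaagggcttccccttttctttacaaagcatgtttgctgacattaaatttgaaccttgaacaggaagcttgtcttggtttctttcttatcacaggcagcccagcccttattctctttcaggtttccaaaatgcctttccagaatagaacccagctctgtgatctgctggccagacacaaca
Sprr2d and Sprr2e were identical at 225 of 250 aligned bases. Sprr2i, with a probe at background, matched each of them at 196 bases and holds the same motifs at the same distances as Sprr2d, 193 bases (AP-1), 108 bases (octamer) and 29 bases (TATA box) before the start.

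All 3 motifs were found in 7 of the 9 windows, those of Sprr2b, Sprr2d, Sprr2e, Sprr2f, Sprr2h, Sprr2i and Sprr2k, with the first AP-1 match 193 to 198 bases and the octamer 108 to 112 bases before the start. The windows of Sprr2a1 and Sprr2a2, identical to each other over 250 bases, held none of them. Over all 32851 windows of the table, AP-1 was found in 6.75%, the octamer in 1.60%, the TATA box in 12.4%, and all 3 together in 0.0426%. The last share is 14 windows, and the 7 windows of the members are among them. The letters were chosen after the member windows had been seen, and these windows are alike in sequence and are not separate cases. The shares therefore describe the windows and carry no test. Of the other motifs searched, the core of the interferon-stimulated response element GAAANNGAA (7.13% of windows) had a match in the windows of Sprr2a1, Sprr2a2 and Sprr2f, the C/EBP motif TTGCNNAA (9.56%) in that of Sprr2i, and the STAT motif TTCNNNGAA (7.02%) in none. A match describes letters and shows no binding.

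**Figure D4:**
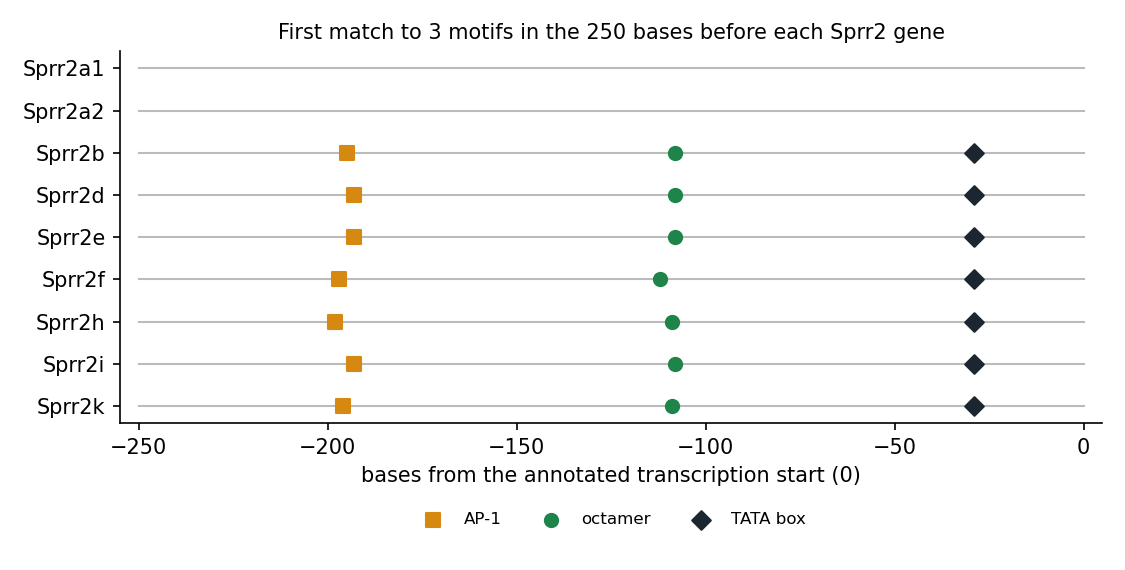
Position of the first match to the AP-1, octamer and TATA box motifs (x axis, bases from the annotated transcription start) in the RefSeq promoter windows of 9 Sprr2 genes (y axis). The motifs sit at nearly the same distances in 7 windows (193 to 198, 108 to 112 and 29 bases before the start), including Sprr2i, and have no match in those of Sprr2a1 and Sprr2a2.

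The rest of the epidermal differentiation complex was mostly at background in these macrophages. Of 40 other genes of the complex found on the array, 11, 7 and 10 were well above background with LPS, CRL1505 + LPS and CRL1506 + LPS, and 3 of 13 compared were at least 2-fold higher and 1 was lower with CRL1505 + LPS than with LPS, beside 9.33% and 8.29% of all genes compared. The higher ones were Sprr2j-ps, Sprr2a3 and Sprr1a (at least 2.82-fold, from 24.8 with LPS to 65.4 with CRL1505 + LPS), a relative of the Sprr2 genes in the same cluster, and the lower one was Tchh, which encodes trichohyalin of the hair follicle (at least 2.11-fold). With CRL1506 + LPS, 3 of 13 were higher and none was lower, beside 4.67% and 3.44% of all genes. These were Sprr2j-ps, Sprr2a3 and Kprp, a keratinocyte proline-rich protein (at least 3.37-fold). Several of these calls ended under another setting, where the log2 ratio of Sprr1a came to 0.73, that of Kprp to 0.89 and that of Sprr2j-ps with CRL1506 + LPS to 0.85 (deposited log2 values), and that of Tchh to -0.31 (normexp). The genes of involucrin and loricrin, Ivl and Lor, stayed at background on every array. The median log2 ratio of this list was -0.05 and 0.09, beside 0.00 and -0.07 for all genes.

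Among 14 S100 genes of the complex, which encode calcium-binding proteins, 1 of 10 compared was higher and 2 were lower with CRL1505 + LPS than with LPS, beside 9.33% and 8.29% of all genes. S100a9, a subunit of calprotectin, was at least 9.04-fold higher with CRL1505 + LPS (210, against 7.79 with LPS and 7.90 with CRL1506 + LPS), whereas its partner S100a8 was 2.48-fold lower (370 against 1319). S100a4 was lower with both strains, 3.27-fold with CRL1505 + LPS and 2.23-fold with CRL1506 + LPS (log2 ratio -0.89 in the deposited log2 values). Among 12 transglutaminases and other cornified envelope partners with a probe, Serpinb2, the plasminogen activator inhibitor PAI-2, was higher with both strains (2.54-fold and 2.28-fold over LPS), and Ppl, which encodes periplakin, was at least 2.09-fold lower with CRL1506 + LPS. Neither held under every setting, since the lowest log2 ratios of Serpinb2 were 0.84 (spike-in scaling) and 0.70 (deposited log2 values), and the mean over its probes gave no fold for Ppl. Of the transglutaminase genes, Tgm3 was well above background on every array (859, 959 and 794 with LPS, CRL1505 + LPS and CRL1506 + LPS). Tgm1 passed with CRL1506 + LPS only (41.96) and Tgm7 with LPS only (44.6). Tgm2, Tgm4, Tgm5 and Tgm6 stayed at background on every array.

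Genes of factors with known sites in the human SPRR2A promoter were counted the same way. Of 15 compared, 5 were at least 2-fold higher with CRL1505 + LPS than with LPS and 1 was lower, beside 9.33% and 8.29% of all genes. The higher ones were Irf2 (4.66-fold), Fos (3.38-fold), Stat3 (3.27-fold), Fosl1 (2.22-fold) and Klf4 (2.15-fold), of which Fos and Fosl1 encode subunits of AP-1. Fosb, a further AP-1 gene, was at least 2.35-fold lower. Scaling to spike-in probes took Fosl1 (log2 ratio 0.64) and Klf4 (0.60) below 2-fold, and the mean over its probes gave no fold for Fosb. With CRL1506 + LPS, 1 of 15 was higher, Ets1 (3.43-fold), and none was lower, beside 4.67% and 3.44% of all genes. The direction of Ets1 was not stable, since its lowest log2 ratio over the alternative settings was -0.33. The epithelial factors Elf3 and Ehf and the octamer-binding factor Pou2f3 stayed at background on every array. Pou2f1 and Pou2f2, the other octamer-binding factors of the list, were well above background on all 3 arrays. They read 1474, 990 and 1173 (Pou2f1) and 1221, 559 and 934 (Pou2f2) with LPS, CRL1505 + LPS and CRL1506 + LPS. Both lay within 2-fold of LPS with either strain. The median log2 ratio of the list was 0.16 in the first comparison and -0.14 in the second.

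The genes most like Sprr2d were sought by the distance between their pair of log2 ratios over LPS and that of Sprr2d, among 12783 other genes well above background on both strain arrays. Sprr2e, whose ratios were used to pick the family, lay at a distance of 1.56. The nearest genes that are not members were Inhba (2.56), Urah (2.69), Gm15987 (2.80), 4930438A08Rik (3.39) and Il19 (3.78), over 3 arrays. Members other than Sprr2e were left out of the search, so some of them may lie nearer. The distance of Gm15987 was computed from lower bounds, since it read 36.6 with LPS and was not well above background there, and its true distance is not known. Inhba, which encodes the activin A subunit, read 41.9 with LPS, 926 with CRL1505 + LPS and 776 with CRL1506 + LPS. Il19, a cytokine of the interleukin-10 family, read 75.3, 4987 and 166.

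No Sprr2 ratio of at least 2-fold changed sign under another scaling, background correction, filter or spot selection. Sprr2d over LPS kept log2 ratios of 5.87 to 7.78 with CRL1505 + LPS and of 3.41 to 5.01 with CRL1506 + LPS, where the lowest value of each came from the authors' deposited log2 values. Sprr2k fell below 2-fold when the arrays were scaled to spike-in probes (log2 ratio 0.79 for CRL1505 + LPS over LPS and 0.68 over CRL1506 + LPS), as did Sprr2b between the strains (0.95). Between the strains Sprr2k also fell to 0.87 with the 75th percentile taken over probes detected on all arrays.

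**Figure D5:**
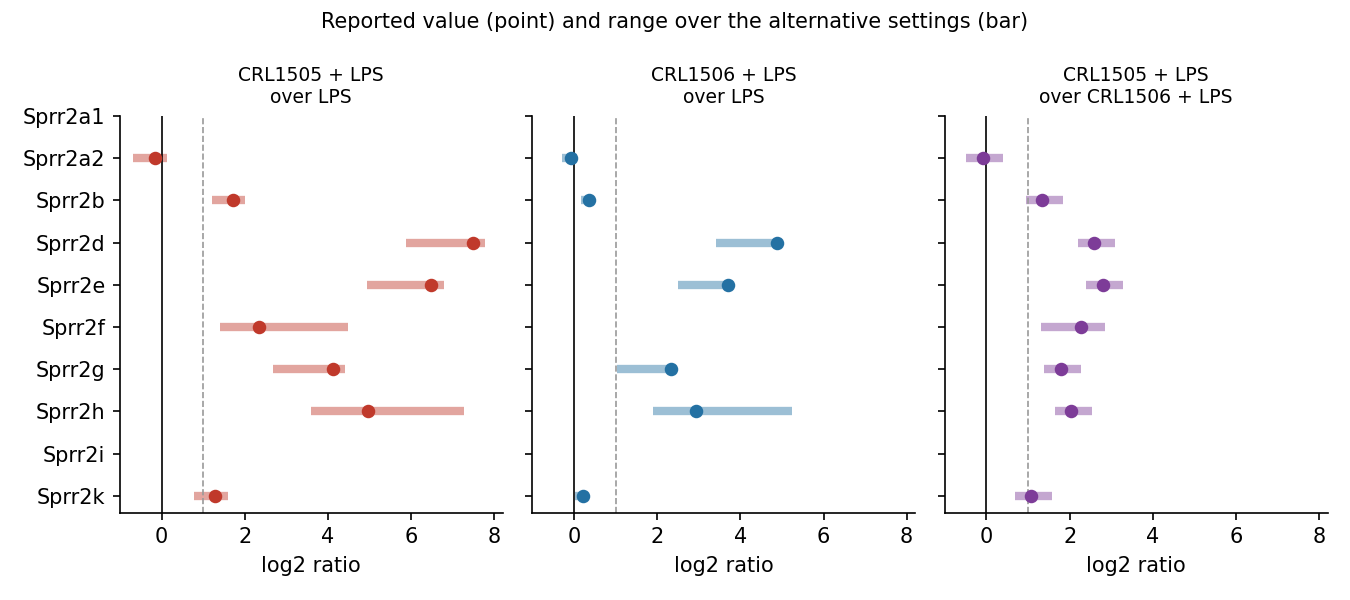
Log2 ratio of each Sprr2 gene (y axis) in the 3 comparisons, as reported (point) and as the range over the alternative settings (bar), with a dashed line at 2-fold. The bars of Sprr2d and Sprr2e stay above 2-fold in every panel (lowest for Sprr2d 5.87, 3.41 and 2.19), those of Sprr2k cross it with CRL1505 + LPS, and those of Sprr2a2 span 0.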

How the data were processed

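RNA of RAW 264.7 cells was labelled with Cy3 and hybridised to SurePrint G3 Mouse GE 8x60K arrays, 1 array per condition. Per the file headers, the deposited processed signal intensity came from Feature Extraction 12.0.3.1 (the study's design text names an older version) with probe positions on mm9. The software subtracted a spatial surface from the mean signal, divided by a multiplicative surface and replaced signals near 0 by surrogates (25.2%, 34.6% and 24.4% of gene spots with LPS, CRL1505 + LPS and CRL1506 + LPS), without normalization between arrays. A second table from the authors held log2 values, normalized between arrays by a method not given in the sources used here (median 6.77 in each column). The submitters' processing notes name limma. These log2 values served as an alternative.

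The main values were log2 of the processed intensity minus the array's 75th percentile over gene spots. Outlier spots were left out, and spots of a probe were averaged. The brightest probe stood for a gene. Genes were compared where at least 1 array of a pair was well above background, and where the other was not, its value was the higher of the probe's own intensity and the lowest one well above background, which gives a bound. Such a bound was set to 0 where it gave no fold. Calls were made at 2-fold. With 1 array per condition no test was run, and the number of arrays limits the precision. The Sprr2 genes, the 7 gene lists and the motifs were chosen with earlier results of these data known.

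All 10 members were named. Of each list, counts and up to 6 genes past 2-fold with the largest ratios were named. Some further genes of the lists, at background or well above it, were chosen after their values were seen. The 5 genes nearest to Sprr2d were also named. Scripts were tested on simulated data. Alternatives were another scaling, background correction, filter, probe summary, outlier handling and threshold. Leaving out uneven spots, or Sprr2 genes whose probe shares at least 16 bases in a row with another gene's probe, was added after seeing the data. R 4.3.3, limma 3.58.1, Python 3.11.15, NumPy 2.4.6, pandas 2.3.3, SciPy 1.17.1 and Biopython 1.88 were used.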

Additional observations from a re-analysis of the deposited data

How the results depend on the processing

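Over 23 Sprr2 ratios and their alternatives (268 values), 201 moved by less than the median SD between log2 ratios of different probes of a gene, 67 moved by more, and none of the ratios past 2-fold changed sign. The 201 include values that could not move. For Sprr2d with CRL1505 + LPS over LPS, another filter, probe summary or spot selection returned the reported log2 ratio of 7.48. Another scaling or background correction gave 5.87 to 7.78. The counts of Sprr2 genes at least 2-fold higher (7, 4 and 7 for CRL1505 + LPS over LPS, CRL1506 + LPS over LPS and CRL1505 + LPS over CRL1506 + LPS) came to 4, 2 and 4 when a probe had to be well above background on every array, since Sprr2f, Sprr2g and Sprr2h then dropped out. Leaving out Sprr2a2, Sprr2b, Sprr2e and Sprr2k, whose probes share at least 16 bases in a row with another gene's probe, gave 4 for CRL1505 + LPS over either array. Shorter common stretches, such as the 15 bases of Sprr2f and Sprr2h, were kept, so shared signal within the family was not removed. A 4-fold threshold gave 4 between the strains.

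The counts of all genes (1430, 724 and 1332) were 2772, 1595 and 2873 at 1.5-fold, 423, 162 and 348 at 4-fold, and 924, 328 and 857 with the deposited log2 values. Scaling to the median gave 2241 over LPS and 3374 between the strains for CRL1505 + LPS, and spike-in scaling gave 736 in each. The filter on every array gave 949 and 406 over LPS, no filter gave 1711 and normexp 365 for CRL1506 + LPS.

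Of the genes called between CRL1505 + LPS and LPS, 52.9% were higher, against 75.4% under median scaling and 19.4% under spike-in scaling. For CRL1506 + LPS over LPS this share was 57.6%, against 38.2% under median scaling and 47.0% under quantile normalization. Between the strains it was 56.6%, against 90.1% (median), 67.0% (cyclic loess), 37.7% (75th percentile of probes detected on all arrays) and 23.6% (spike-in). Median scaling moved the median log2 ratio of genes well above background on both arrays by 0.30, -0.20 and 0.50, and spike-in scaling by -0.51, -0.11 and -0.40. The cause of these shifts was not tested. No paired analysis was possible because there was 1 array per condition. Signal over background limits Sprr2f, Sprr2g and Sprr2h over LPS to bounds.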

Other observations

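Among 19 antibacterial peptides and proteins of epithelium and macrophages with a probe, 3 of 9 compared were at least 2-fold higher with CRL1505 + LPS than with LPS and 1 was lower, beside 9.33% and 8.29% of all genes compared. With CRL1506 + LPS, 2 were higher and 1 was lower, beside 4.67% and 3.44%. Lcn2, which encodes the siderophore-binding lipocalin 2, read 14357 with LPS, 151330 with CRL1505 + LPS and 42008 with CRL1506 + LPS, a 15.2-fold and a 3.12-fold excess over LPS. Its order of the arrays was that of Sprr2d and Sprr2e. Nos2, the inducible nitric oxide synthase, read 3520, 25787 and 2037, so that CRL1505 + LPS was 10.5-fold above LPS and CRL1506 + LPS was 1.62-fold below it. Retnla was well above background with CRL1505 + LPS only, at least 7.28-fold above LPS. Ang4, an angiogenin with antibacterial activity in the gut, was at least 3.94-fold lower with CRL1505 + LPS and 3.54-fold lower with CRL1506 + LPS than with LPS, and Ltf, the lactoferrin gene, was at least 2.21-fold higher with CRL1506 + LPS. In the deposited log2 values the log2 ratios of Ang4 were -0.74 and -0.90 and that of Ltf was 0.62, all within 2-fold. The median log2 ratio of the list was 0.07 for CRL1505 + LPS and -0.25 for CRL1506 + LPS, beside 0.00 and -0.07 for all genes.

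Of 13 macrophage markers, 2 were at least 2-fold higher and 1 lower with CRL1505 + LPS than with LPS, namely Fcgr1 (5.28-fold higher), Adgre1 (4.83-fold higher) and Csf1r (2.77-fold lower), beside 9.33% and 8.29% of all genes. With CRL1506 + LPS, Adgre1 lay at 2-fold above LPS and fell to a log2 ratio of 0.80 when the arrays were scaled to their medians. Of the epithelial markers, Epcam was at least 3.81-fold lower with CRL1505 + LPS and 2.63-fold lower with CRL1506 + LPS than with LPS (log2 ratios -0.81 and -0.77 with normexp). None of the 3 epithelial markers compared was 2-fold higher with either strain, beside 9.33% and 4.67% of all genes. With so few genes this count describes only these markers.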
